A study of Mus musculus with 6 samples.

Results

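A large class of probes on the mouse array used here has no gene name and is identified only by a genomic interval of mm9 and a strand label, F or R. A probe belonged to this class when it was no control probe and its name was a chromosome, a start, an end and one of those labels. This gave 16181 of the 55681 probes on the array, in 3540 intervals (median length 7316 bp, shortest 62 bp) and 4607 interval strands. Each interval strand carried up to 10 probes (median 3), and 2101 of the intervals (59.4%) overlapped another interval, so neighbouring probes often share a target and are not independent. A probe was kept when every array of 1 or both groups had it flagged as well above background. The kept set held 6771 interval probes (41.8%), against 66.3% of the 39500 other probes. The class is the array's content for long intergenic noncoding RNAs (lincRNAs). The deposited files give neither a transcript, a lincRNA label nor a probe sequence for these intervals, so they are called here by interval and strand label.

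LincRNAs are RNA polymerase II transcripts that lie between protein-coding genes and have no long open reading frame. They are usually spliced and polyadenylated, are on average less abundant than messenger RNAs, and are often restricted to few cell types. Some act in the nucleus on chromatin or on nuclear bodies, others act in the cytoplasm, and for most no function is known. A transcript is made from 1 strand, which is why the array carries probes for either strand of many intervals.

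The arrays were hybridised with total RNA from whole kidneys of male C57BL/6J mice. There were 3 animals labelled control and 3 labelled iNampt-conditional knockout, with 1 single-colour array per animal. Nampt makes nicotinamide mononucleotide, the rate-limiting step of NAD salvage, and the series title places the study in renal proximal tubules and the Nampt-Sirt6 axis. The age of the mice, the Cre driver and the genotype of the controls are not given in the sources used here, and a whole kidney holds many cells outside the proximal tubule. The comparison below asks which interval transcripts differ between knockout and control kidneys. In whole tissue, fewer cells of a type and less RNA per cell cannot be told apart.

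All values are log2 of the processed signal minus the 75th percentile of that array, so 0 is the level of the 75th percentile. The Nampt probe stood at 2.67 ± 0.09 in controls and 1.61 ± 0.17 in knockouts (SD, n = 3 each), without overlap. Its difference of -1.06 had an adjusted p of 0.0518 by limma over all kept probes. The 6 arrays share 1 slide, whose first row held the controls and knockout 1 and whose second row held knockouts 2 and 3. The lowest detected signal was 18.5 to 20.9 units in the first row and 29.6 and 32.2 units in the second. None of the 6 proximal tubule markers was called or differed without overlap. Their summed signal was 834 to 929 times the 75th percentile in controls and 837 to 885 times in knockouts. No marker of another cell type was called either, but some differed without overlap. No marker of the loop of Henle, distal tubule, podocytes, endothelium or T cells did so, and 1 of 2 collecting duct markers did. All 3 neutrophil markers were lower in every knockout (summed level 5.35 to 7.29 against 0.79 to 2.20), and 5 of 7 macrophage markers were higher in every knockout (43.8 to 51.2 against 58.0 to 62.3). The 4 adipocyte markers summed to 30.9 to 43.0 in controls and 18.9 to 38.7 in knockouts, and the 3 erythroid markers to 123 to 160 and 63.6 to 140. Both of these sums overlapped between the groups, and 1 marker of each list differed without overlap. Havcr1 and Lcn2, markers of tubular injury, summed to 0.91 to 1.46 in controls and 2.18 to 3.96 in knockouts. The part of these cells and of the slide row in the interval values was not tested. Values given below with the slide row as a block set knockout 1 alone against the controls, since the second row held no control. Knockouts 2 and 3 add nothing to the size of such a difference. The block therefore cannot tell the slide row from a difference between knockout 1 and the other knockouts.

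Interval probes were dim. The mean level of the kept ones had a median of -2.87, with quartiles at -3.98 and -1.26 and the 95th percentile at 2.02, whereas the other kept probes had a median of -0.03. Only 911 kept interval probes (13.5%) lay above 0, against 49.6% of the others. Of the 16181 interval probes, 7445 were well above background on 0 arrays and 5543 of the kept ones were so on all 6 arrays. The number detected was 7391, 7589 and 7244 on the control arrays and 7085 on knockout 1, all in the first row. It was 6213 and 6057 on knockouts 2 and 3, in the second row. Knockout 1 thus lay nearer to the controls than to the other knockouts. Probes detected on 0 arrays read between -7.55 and -7.31 in the median on first-row arrays and -6.75 and -6.70 on second-row arrays, so below the detection limit the second row read higher.

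As a set, the interval transcripts hardly differed between knockout and control kidneys. The median difference, knockout minus control, was -0.02 over the 6771 kept interval probes and -0.01 over all 32949 kept probes. With the slide row as a block the median of the interval probes was -0.0015. Single probes scattered more than other probes did, with a median absolute difference of 0.108 against 0.0776 and a median SE of 0.114 against 0.0802. Limma with Benjamini-Hochberg adjustment at 0.05 called 3 interval probes (0.0443%), all lower in knockouts and none higher. Over all kept probes it called 0.0789%, of which 0.0273% higher and 0.0516% lower. At an unadjusted p under 0.05, 285 interval probes were higher and 469 lower, together 11.1%, against 11% of all kept probes. The share called was thus near the background.

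The 3 knockout values lay all above the 3 control values for 392 interval probes and all below for 583. These 14.4% compare with 17.3% of all kept probes, 7.7% above and 9.59% below. The filter favours lower probes, since 1219 interval probes were kept through the controls alone and 9 through the knockouts alone. The interval probes detected on all 6 arrays, a choice that leaves out probes that drop below detection in knockouts, held 376 separated upwards and 419 downwards. The split also moved with the scaling, to 254 above and 897 below with quantile normalisation and 289 above and 833 below with normexp and quantile normalisation.

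**Figure D1:**
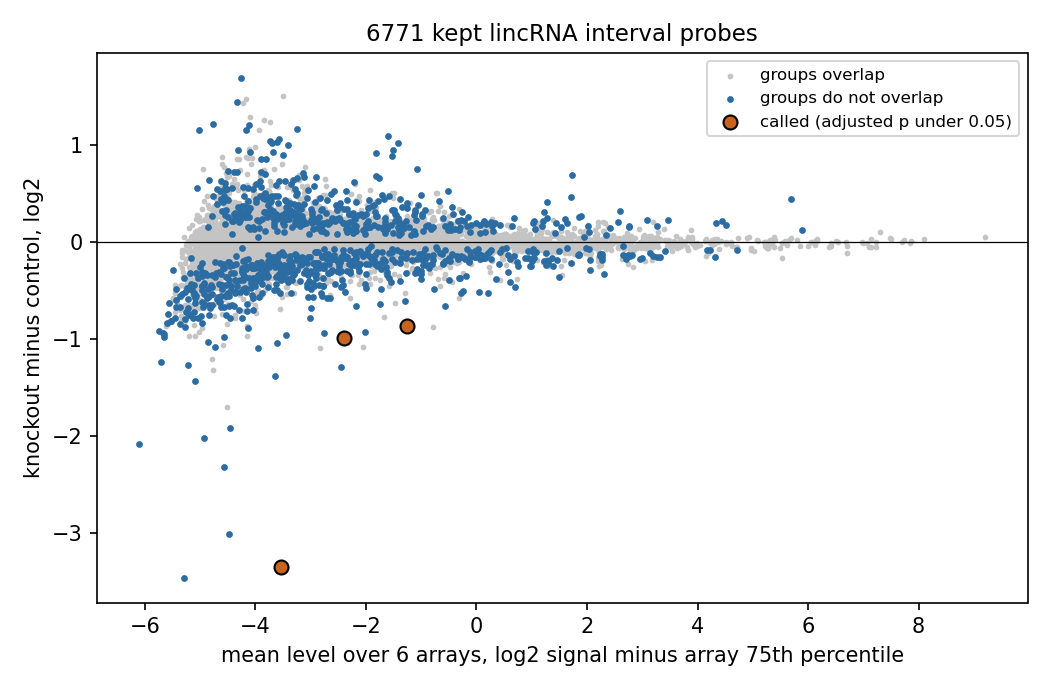
Each point is 1 of the 6771 kept interval probes, with the mean level over 6 arrays on the x axis (log2 signal minus the array's 75th percentile) and the difference, knockout minus control, on the y axis (log2). Blue points are the 975 probes whose groups do not overlap and the 3 orange points are the called probes, all below 0. The differences fan out towards the dim end, where most interval probes lie.

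The largest called difference lay in an interval of 40685 bp, chr15:66682293-66722977. Its R probe A_30_P01029219 read -1.99, -1.64 and -1.96 in the controls and -5.18, -5.26 and -5.22 in the knockouts. The groups stood more than 3 log2 units apart, with a spread below 0.2 inside either (SD 0.19 and 0.04). The difference was -3.35 ± 0.10 (SE, n = 3 and 3; limma adjusted p = 0.000947). The probe was well above background on all control arrays and on no knockout array. Its level in knockouts is therefore only a bound, and the knockout SD is a spread below detection. On this scale the signal was at least 7.91-fold lower in knockouts. With normexp and quantile normalisation the difference was smaller, -1.64. With the slide row as a block the difference was -3.31 (adjusted p = 0.0105), and the call was made in 15 of the 16 settings in which the probe was tested.

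The array carries 5 R probes for the interval, of which 4 were kept, 3 of them through the controls alone. That way of being kept favours probes that read lower in knockouts, so their common direction is a description only. Probe A_30_P01022627, detected on all 6 arrays, read -2.93, -2.99 and -3.002 in controls and -3.98, -3.49 and -4.31 in knockouts, a difference of -0.96 (adjusted p = 0.226), without overlap. Probe A_30_P01027566 read -3.08, -2.95 and -2.86 in controls and was not well above background on any knockout array. It was at least 3.80-fold dimmer there on this scale (difference -3.01, adjusted p = 0.255). With the slide row as a block the difference was -4.62, which rests on the undetected reading of -7.584 in knockout 1. The fourth, A_30_P01032487, was dim in both groups and differed by -0.57 (-0.29 with the block). Averaged over the 4 R probes, the arrays read -3.11, -2.996 and -3.03 in controls and -5.35, -4.54 and -5.16 in knockouts. The knockout averages include readings below detection and are not measured levels. None of the 3 R probes besides the called one passed the test with group as the only term. The short interval chr15:66685663-66686113, which lies inside the long one, had 1 kept R probe of 3, with a difference of -0.37.

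Probes of the opposite label in the chr15 interval were mixed. Of 5 F probes 3 were kept. A_30_P01027097 read -3.88, -3.92 and -3.96 in the controls and was not well above background in any knockout. It was at least 1.97-fold dimmer there on this scale (difference -2.02, adjusted p = 0.175, or -0.58 with normexp and quantile normalisation). With the slide row as a block the difference was -2.85, which rests on the undetected reading of -6.768 in knockout 1. The other F probes, A_30_P01023189 and A_30_P01031205, differed by 0.30 and 0.01 and their groups overlapped.

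The second call lay in chr12:53669892-53710742, an interval of 40851 bp on the chromosome that carries Nampt. F probe A_30_P01020001 read -1.84, -1.94 and -1.92 in the controls and -2.82, -2.96 and -2.91 in the knockouts, all 6 well above background. The difference of -0.996 ± 0.06 (adjusted p = 0.0161) put the knockouts at 50.1% of the control level. The other 3 kept F probes also had every knockout below every control, 1 of them (A_30_P01029847) kept through the controls alone. A_30_P01033136 came closest to a call, with a difference of -1.05 and an adjusted p of 0.0696, and A_30_P01029847 and A_30_P01031337 differed by -0.64 and -0.58 (-0.31 and -0.78 with the slide row as a block). None of the 6 R probes of the interval was kept.

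An overlapping shorter interval, chr12:53669634-53672010, gave 2 kept F probes that did not behave alike. A_30_P01023922 read -4.96, -4.91 and -5.29 in controls and was not well above background in knockouts (difference -2.09, adjusted p = 0.0518). This probe was called with quantile normalisation (-2.42, adjusted p = 0.00399). It was not called with normexp and quantile normalisation (-0.42, adjusted p = 0.174) or with the replicate number as a block (adjusted p = 0.201). With the slide row as a block the difference was -2.49, which rests on the undetected reading of -7.545 in knockout 1. No at-least-fold bound could be given for this probe. A_30_P01029904, detected on all 6 arrays, differed by -0.11 and its groups overlapped. A short interval of the other label inside the same stretch, chr12:53700970-53703612, had 1 bright kept R probe that differed by -0.08.

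The third call was R probe A_30_P01020436 of chr4:146507925-146532650. It read -0.85, -0.81 and -0.82 in the controls and -1.62, -1.74 and -1.73 in the knockouts, a difference of -0.87 ± 0.06 (adjusted p = 0.0161). The knockouts stood at 54.7% of the control level. Here the neighbours did not share the size of the change. The other 4 R probes of the interval, all kept, differed by -0.22, -0.07, -0.16 and 0.24 (-0.14, -0.04, -0.13 and 0.38 with the slide row as a block), none of them called, and in the last, A_30_P01030574, every knockout lay above every control. None of the 3 F probes was kept.

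The chr12 and chr4 calls were less firm than the chr15 call. With the slide row as a block, knockout 1 alone against the controls, their differences were -0.92 and -0.80. Both were lost when any control array, knockout 2 or knockout 3 was left out, and kept without knockout 1; each was called in 10 of 17 settings. In none of these settings did either difference turn sign.

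**Figure D2:**
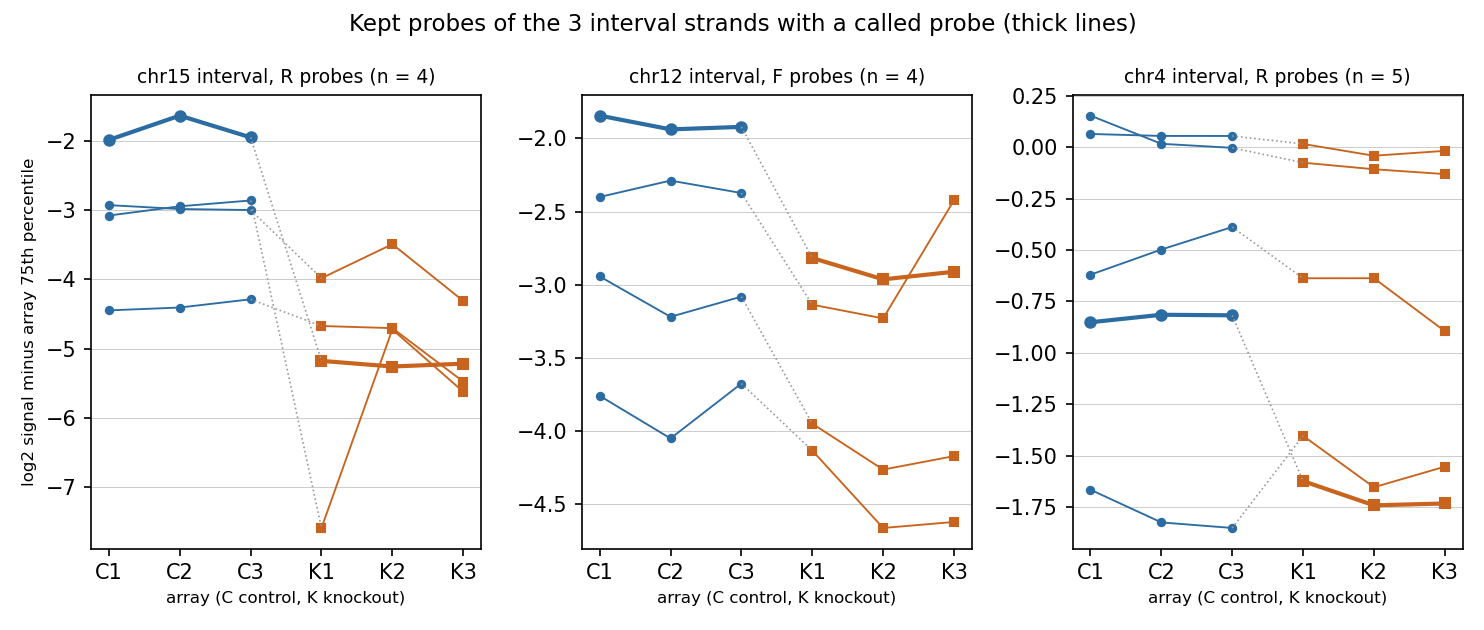
Every kept probe of the 3 interval strands that hold a called probe, by array (C1 to C3 controls, K1 to K3 knockouts), as log2 signal minus the array's 75th percentile, with the called probe as the thick line. In the chr15 and chr12 panels all 4 probes are lower in each knockout than in each control, and in the chr4 panel 4 of 5 are.

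Among the probes with higher signal in knockouts, none passed the test. The 10 of smallest p had differences of 0.52 to 1.22 and adjusted p-values of 0.0854 to 0.132. The first was F probe A_30_P01030022 of chr12:20620869-21028045, a long interval with this single probe. It read -4.00, -4.40 and -4.37 in controls and -3.14, -3.28 and -3.23 in knockouts, a difference of 1.04 ± 0.12 (1.11 with the slide row as a block). F probe A_30_P01031419 of chr1:138570107-138632310 differed by 0.66, but the other 3 kept F probes of that interval were negative. Likewise R probe A_30_P01029243 of chr12:21548850-21568550 differed by 0.75, and 1 of its 2 kept neighbours was negative. These examples rest on single probes.

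Other intervals among them were higher at every kept probe. In chr12:55844075-55898175 all 5 R probes were bright, between 1.07 and 5.47 in controls, and each was higher in every knockout, by 0.32 to 0.69. Averaged over the 5 probes the arrays read 2.33, 2.31 and 2.47 in controls and 2.71, 2.92 and 2.87 in knockouts. The mean difference of 0.46 was 0.34 with the slide row as a block, and the smallest adjusted p was 0.122. The 3 kept F probes of the interval were positive too (0.04 to 0.33), and 1 of them was separated. In chr13:9185198-9185778, an interval of 581 bp, all 3 F probes were higher in every knockout, by 0.34, 0.52 and 0.61.

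A stretch of chromosome 5 stood out among the higher probes. Between chr5:14923900 and chr5:15184923 there were 10 probes of 6 intervals, all labelled F, that were higher in every knockout, by 0.47 to 1.22. In chr5:15146475-15170100 all 4 probes were separated, with array means of -2.40, -2.85 and -2.70 in controls and -1.96, -1.34 and -1.72 in knockouts (mean difference 0.98, or 0.69 with the slide row as a block). Both probes of chr5:14943275-14944205 were separated as well, by 0.94 and 1.02. The single probe of chr5:14996031-15035334, A_30_P01033239, was the only interval probe detected on all knockout arrays and no control array. On this scale it was at least 2.23-fold brighter in knockouts (adjusted p = 0.125). With normexp and quantile normalisation its difference was smaller, 0.29. In each of these intervals the second knockout read highest and knockout 1 lowest of the knockouts. The intervals lie close together and their probe sequences were not analysed here, so whether their probes detect separate transcripts was not tested.

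Over the array, 1040 interval strands had 3 or more kept probes. In 39.7% of them all probes had the same sign, against 45.8% of 686 named genes with as many probes. The median SD of the difference between probes of an interval strand was 0.115, against 0.0706 between probes of a gene. All kept probes separated the groups in the same direction in 25 interval strands (2.40%), 12 higher and 13 lower, against 2.19% of the genes. The mean difference kept its sign in all 25 with the slide row as a block. The choice of these strands fixes that outcome, since the block sets knockout 1 alone against the controls. Besides those above, the 25 include chr6:67016874-67030651 F (3 probes, mean 0.81), chr17:8718223-8949898 F (mean -0.76, but -0.39 with the block) and chr2:174852887-174853961 F (3 probes, mean 0.54). They also include chr10:69844350-69844784 F, whose 3 probes were near 0 in controls and lower in every knockout, with differences of -0.53 to -0.49. Smaller but tight shifts were seen in bright intervals such as chr6:54591416-54597566 F, where 5 probes averaged 2.02 ± 0.09 in controls and 1.83 ± 0.03 in knockouts (SD over arrays, n = 3).

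**Figure D3:**
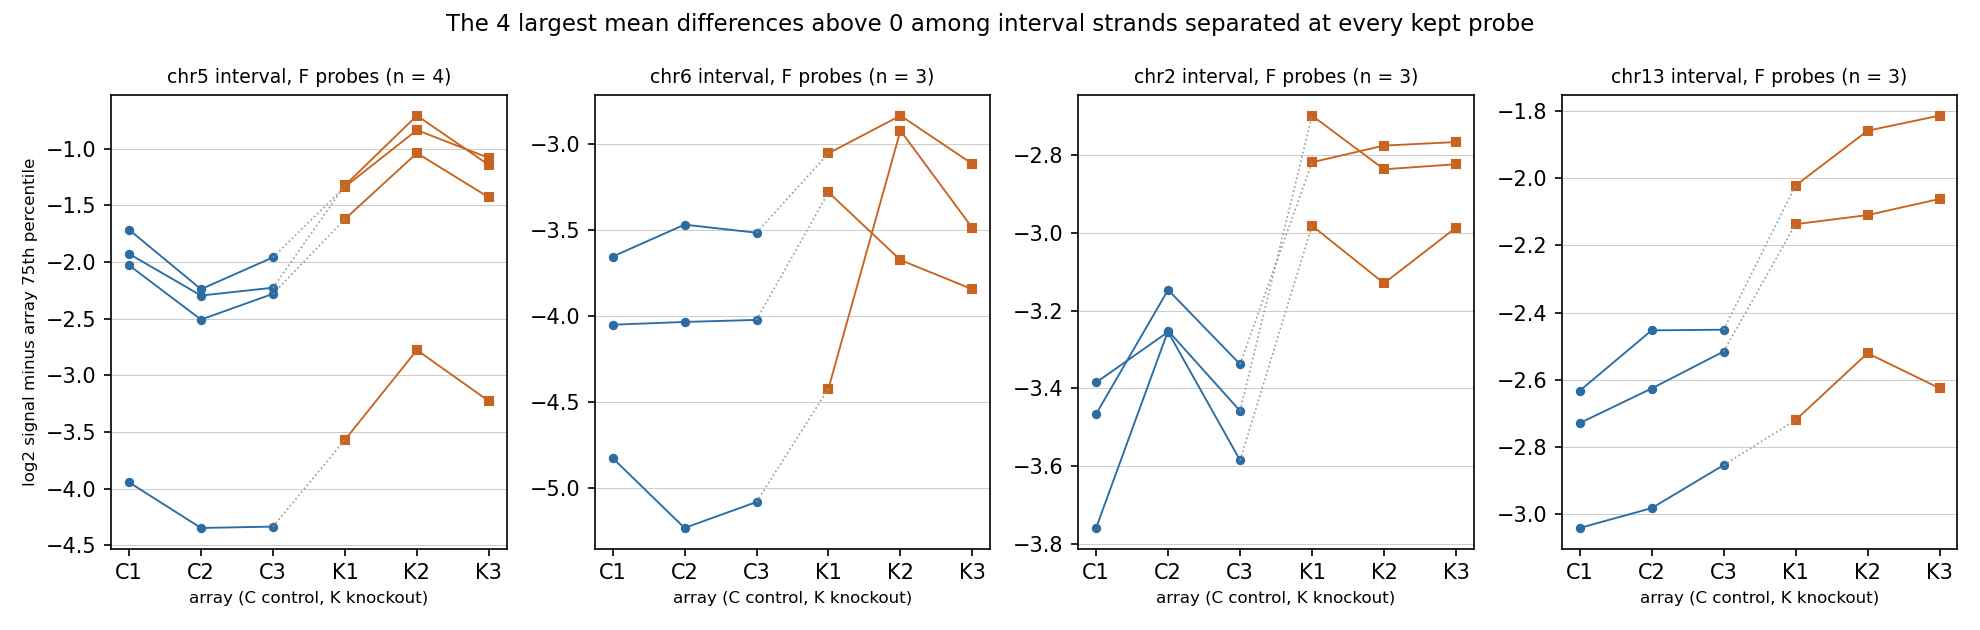
Every kept probe of the 4 interval strands with the largest mean difference above 0 among those separated at all their kept probes, by array (C1 to C3 controls, K1 to K3 knockouts), as log2 signal minus the array's 75th percentile. The mean differences are 0.98 (chr5), 0.81 (chr6), 0.54 (chr2) and 0.49 (chr13), and no probe of these was called.

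The lower probes of smallest p that missed the test had adjusted p-values from 0.0518 to 0.122. R probe A_30_P01026060 of chr17:22090757-22099418 read -2.84, -2.85 and -2.87 in controls and -3.24, -3.36 and -3.27 in knockouts, a difference of -0.44. F probe A_30_P01030215 of chr2:151992806-152025456 differed by -0.39, while the mean over the 7 kept F probes of that interval was -0.08 and none of the other 6 was separated downwards. F probe A_30_P01022761 of chr11:102878974-102888924 was detected in controls only and differed by -0.67, close to the detection limit. These are differences of single probes that did not pass.

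A difference of 1 or more was found in 43 kept interval probes, 21 higher and 22 lower. Of the 43, 29 did not overlap and 20 were detected on all 6 arrays. The same counts were not made over all kept probes, so whether interval probes hold many or few is not known. Most of the lower ones were kept through the controls alone. With the slide row as a block 14 of the 43 kept that size and 6 turned sign. In 9 of the 21 higher ones a single knockout array stood at least 1 above both others, and in 6 of these that array was knockout 2. The largest, R probe A_30_P01031518 of chr17:21177225-21187525, was chosen after its values were seen. It read -4.15, -1.92 and -4.63 in controls and -7.43, -6.87 and -6.78 in knockouts, a difference of -3.46 (adjusted p = 0.214). That difference rests in part on control 2. The probe was well above background on no knockout array, so its level in knockouts is only a bound, at least 2.505-fold lower.

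Detection in a single group was more frequent for controls than for knockouts. There were 195 interval probes (1.21%) well above background in all controls and no knockout, and 1 in the reverse, against 0.753% and 0.0108% of all probes on the array. In only 73 of the 195 did every knockout value lie below every control value. A difference in the flag is thus often not a separation of the signals. The control mean of 191 of the 195 lay within 1 log2 unit of the highest detection limit of the 6 arrays, -4.64. With that limit applied to every array alike the counts became 32 and 7. A bound above 1 could be given for 88 of the 196 and one of 1.5-fold or more for 10, and the median bound was 1.103-fold. Among the 10 of smallest p were chr12:4409025-4437250 F (at least 1.57-fold lower), chr1:44915250-44944125 F (at least 1.33-fold) and chr9:106170918-106177894 R (at least 1.74-fold). None of these passed the test, and with normexp and quantile normalisation they differed by -0.255, -0.16 and -0.42. The surplus in controls moved with the detection limit of the second slide row, and its part was not tested further.

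Many intervals had kept probes of both labels. The array had probes for both labels in 1067 intervals. Both labels had a kept probe in 598 of them, F alone in 180, R alone in 197 and neither in 92. A label counted with 1 kept probe, and whether the labels were kept together more often than each alone would give was not tested. The other 2473 intervals had probes of 1 label, kept in 1498. In all, 3235 F probes and 3536 R probes were kept. The mean differences of the F and R probes of an interval were hardly related, with Pearson r = 0.08 over 598 intervals, which share arrays and, in part, sequence. They had the same sign in 333 (55.7%).

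The pairs with the largest summed differences were mixed, some with the same sign on both labels and some not. After the chr15 interval above came chr2:71576218-71603818, where F probe A_30_P01031575 read 0.37 to 0.55 in controls and 0.37 to 0.50 in knockouts. R probe A_30_P01025376 read -5.28, -5.00 and -5.04 in controls and -4.65, -1.72 and -3.89 in knockouts, a mean difference of 1.69 carried mostly by knockout 2 (0.46 with the slide row as a block). In chr8:27129927-27137444 the F probe differed by 1.16 (0.28 with the block) and the R probe by -0.48. In chr12:110944403-110988678 both were negative, with a mean of -0.46 over 4 F probes and -1.03 at the R probe. That R probe, A_30_P01026210, and F probes A_30_P01021613, A_30_P01019496 and A_30_P01023731 were detected in controls only. Their knockout readings lie below detection, and being kept through the controls favours lower probes, so the shared sign is a description only. Of the 4 F probes 1 was separated, and the R probe was at least 1.42-fold dimmer in knockouts on this scale.

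In the chr9:106170918-106177894 pair 4 F and 2 R probes were kept, and the probe with the largest difference of each label is given here. F probe A_30_P01024379 read -3.92, -3.51 and -3.52 in controls and -3.87, -6.34 and -5.85 in knockouts, so knockout 1 lay within the controls. This probe was well above background on only 1 knockout array. The difference of -1.70 became -0.21 with the slide row as a block. R probe A_30_P01030390 read lower in all 3 knockouts and differed by -0.98 (-1.19 with the block). It was well above background on no knockout array, so both differences rest on readings below detection. None of these pairs beyond the chr15 interval held a called probe.

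**Figure D4:**
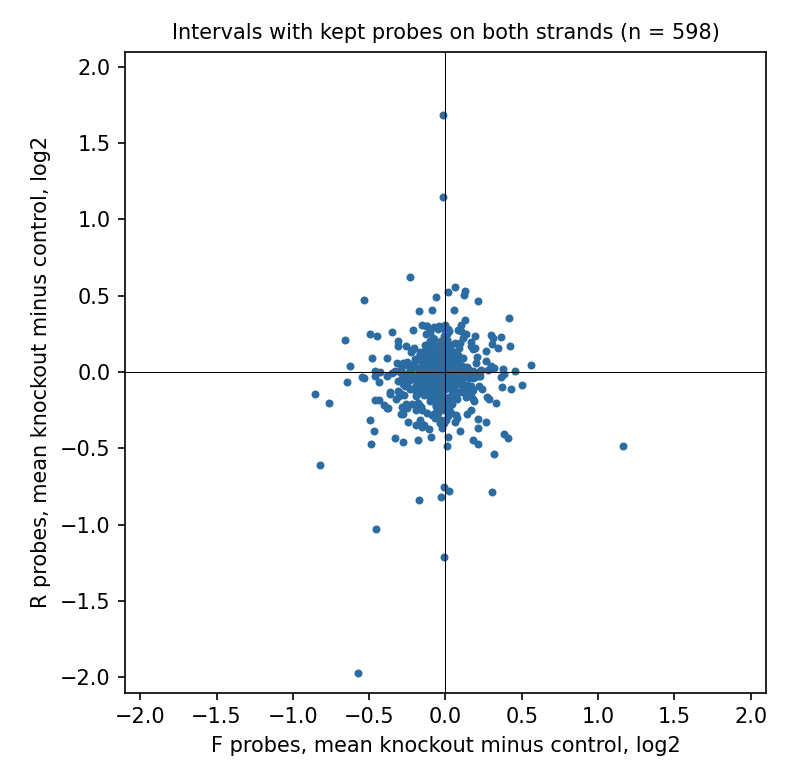
Each point is 1 of 598 intervals with kept probes of both labels, with the mean difference (knockout minus control, log2) of its F probes on the x axis and of its R probes on the y axis. Most points lie near 0 without a diagonal trend (Pearson r = 0.08), and the lowest is the chr15 interval at -0.57 and -1.97.

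Along the genome, no chromosome stood far from 0. Interval probes lay on 20 chromosomes, of which 32.6% (chromosome 9) to 48.5% (chromosome 19) were kept. The median difference per chromosome ran from -0.05 on chromosome 16 to 0.003 on chromosome 13 and was negative on 19, or on 10 with the slide row as a block. On chromosome 12, which carries the targeted gene, 319 kept probes had a median of -0.04 (-0.03 with the block). The share of separated probes was highest there, 19.1% (25 higher and 36 lower), followed by 18.6% on chromosome 2. It was lowest on chromosome 11, 9.09%. Chromosome 12 held 7 of the 43 differences of 1 or more and chromosome 17 held 5, with no share over all kept probes to set beside them. The gene probes of chromosome 12 had 28.5% separated and 9 of 692 called, while on the other chromosomes 15.0% to 21.6% of gene probes were separated. Chromosomes 15 and 16 had 3 higher against 28 lower and 6 higher against 37 lower. More interval probes were lower than higher on 17 of the 20 chromosomes, and over all kept probes 7.7% were separated upwards and 9.59% downwards. The filter favours lower probes, as said above. On chromosome 15 the lower ones include all 4 kept R probes of the called interval. No test across chromosomes was made, since probes of an interval are not replicates.

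In windows of 10 Mb with at least 20 kept probes (137 windows), the median difference ran from -0.17 to 0.52. The highest was chromosome 5 from 10 to 20 Mb, the stretch described above, where 10 of 22 probes were separated upwards and none downwards. Its median of 0.52 was 0.25 with the slide row as a block, and the mean of the 4 kept probes of chr5:14923900-15062725 F was 0.62 without and 0.13 with it. The lowest was chromosome 6 from 50 to 60 Mb, with 13 separated downwards and 1 upwards. There all kept F probes of chr6:52046805-52072744 were negative (-0.66 to -0.23) and 3 of 6 were separated. Chromosome 12 from 50 to 60 Mb, which holds the called chr12 interval and the bright chr12:55844075-55898175, had 41.2% of 34 probes separated, 6 higher and 8 lower. Chromosome 2 from 170 to 180 Mb had 21 of 85 probes higher in every knockout and 5 lower. The higher ones lay in 11 interval strands between chr2:174852887 and chr2:176991202, with differences of 0.19 to 0.72.

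**Figure D5:**
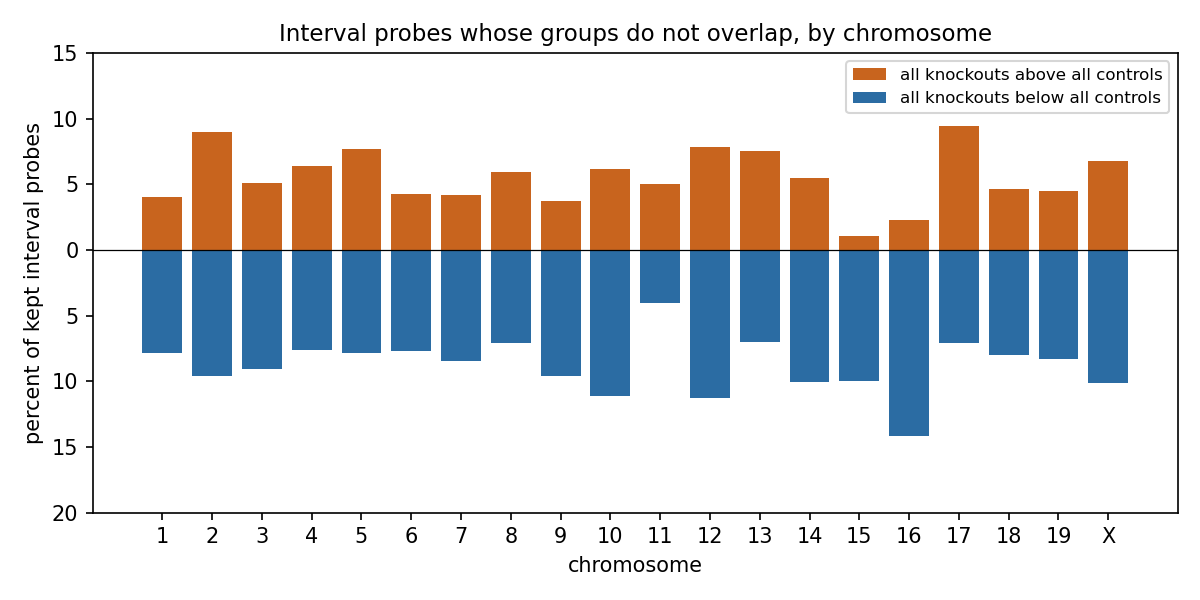
Bars give, per chromosome, the percent of kept interval probes whose 3 knockout values all lie above (orange, upwards) or all below (blue, downwards) the 3 control values. Chromosome 12 has the highest sum, 19.1%, chromosome 11 the lowest, 9.09%, and on chromosomes 15 and 16 the upward bars are the shortest.

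The differences of the 3 brightest interval probes were smaller than the SD between the control arrays. R probe A_30_P01031754 of chr19:5801802-5802597 read 9.09, 9.18 and 9.26 in controls and 9.26, 9.20 and 9.22 in knockouts, a difference of 0.05 ± 0.06. The same interval's A_30_P01028215 differed by 0.03, and F probe A_30_P01031448 of chr14:78924115-78938125, at 7.75 to 7.98 in controls, by 0.01. The short chr19 interval lies inside chr19:5771425-5848475, whose 10 F probes, all kept, were all negative (-0.43 to -0.02) and 4 of them separated. Its most separated F probe, A_30_P01022465, read -1.83, -1.77 and -1.79 in controls and -2.29, -2.25 and -2.15 in knockouts (adjusted p = 0.122). The 1 kept R probe of the long interval, A_30_P01028538, was low in knockout 1 alone, at 0.85 against 1.62 and 1.74 in the other knockouts.

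Long noncoding RNAs that do have a gene name were measured by the same fit. Of a list of 55 names, 34 were on the array and 28 had a kept probe, with 39 kept probes in all. None was called by limma. An unadjusted p under 0.05 was found for 4 of the 39 probes, against 11% of all kept probes, and 6 of the 28 genes were separated at their probe of highest mean, against 17.3% of all kept probes. The median difference over the 28 genes was 0.02, against -0.01 over all kept probes. Neat1, the scaffold RNA of nuclear paraspeckles, read 6.20, 6.47 and 6.36 in controls and 6.00, 5.98 and 6.19 in knockouts, a difference of -0.29 (adjusted p = 0.377). Malat1, a nuclear speckle RNA, read 1.68, 1.65 and 1.48 in controls and 0.88, 1.67 and 1.70 in knockouts (-0.18), so only knockout 1 was lower, and the block gave -0.72. Snhg1, a small nucleolar RNA host gene, differed by 0.24, Jpx, an activator of Xist, by 0.28 and Crnde by 0.32, with adjusted p-values of 0.397 to 0.422. With the slide row as a block these were 0.38, 0.18 and 0.52.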

How the data were processed

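Total RNA of 6 whole kidneys was labelled with Cy3, 1 array per animal, per the labels. The spot intensity was read out by the authors in Agilent Feature Extraction (version 10.7.1.1, in the submitters' processing notes); as the file headers record, background was subtracted and spatial trends removed array by array, with no scaling between arrays. The 0 or 1 flags for detection, saturation and outliers were used as deposited. The authors' deposited value table is a linear ratio: every compared value above 1 (13933 to 13936 per array) equalled the signal over 1 constant per array within 1%, with column medians of 0.075 to 0.084 and no centring of genes; how that constant was set is not given in the sources.

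Outlier spots (92 to 151 per array) were left out, spots of a probe averaged, and log2 signal minus the array's 75th percentile was fitted on all 32949 kept probes with limma 3.58.1 (lmFit, eBayes; R 4.3.3; group as the only term, Benjamini-Hochberg at 0.05). Tables and plots used Python 3.11.15, pandas 2.3.3, numpy 2.4.6 and matplotlib 3.10.9. The fit was tested on simulated data. No spot was saturated. With 3 against 3, an exact permutation test of 1 probe cannot go below p = 0.1, and the number of arrays limits the precision. The labels number the animals but do not say how they were sampled, so p-values measure the spread between these samples.

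"At least N-fold" sets the mean of the detected group against that of the dim group, where each dim array contributes its own signal or its lowest detected signal, whichever is higher. Such a bound holds on the scale of the processed signal alone, and the difference with normexp can be smaller. A called probe has an adjusted p under 0.05; groups are separated when they do not overlap. Named probes are all called ones, the 10 of smallest p in each direction among separated probes, the 3 brightest, those detected in 1 group only (10 of smallest p; the rest are counted), and the 5 strand pairs of largest summed difference. Interval mates, window examples and interval strands separated at every kept probe were named after their values were seen. Probes near Nampt and nearest gene probes were not used, since mm9 positions of gene probes were not analysed here. Genes were named through RefSeq (GRCm38.p6; 28026 probes matched), without its coordinates. The members and lists were chosen with earlier results of these data known. Another 13 probes with an interval but no strand label were left out. Alternatives were other scalings, normexp with an offset of 50 (planned on mean, run on median spot signals), the deposited ratios, filters, variance models, array weights, slide row and replicate number as blocks, and leaving out each array.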

Additional observations from a re-analysis of the deposited data

How the results depend on the processing

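The called probes were 3 interval and 26 of all kept probes. These became 5 and 40 with normexp, 12 and 98 with a trended robust variance, 5 and 45 with array weights, and 84 and 263 with no filter on dim probes (77 of the 84 higher), where 1 named noncoding RNA was also called. With the slide row as a block 7 interval probes were called, 1 of the 3 among them. First-row arrays alone (added after seeing the data) called 3 interval and 17 of all probes. Leaving out 1 array gave 1 to 40 interval probes and 3 to 172 of all probes. The highest counts came without knockout 1, which kept all 3 interval calls; without any 1 control or knockout 2 a single interval probe was called, and without knockout 3 there were 4.

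Same-numbered arrays deviated together with r = 0.11, -0.09 and -0.03, so the numbers did not pair the samples. With the replicate number as a block 0 interval probes and 1 of all probes were called; at the 3 called probes adjusted p was 0.0725 (chr15), 0.165 (chr12) and 0.17 (chr4).

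Separated interval probes (975) numbered 5276 with no filter and 1530 to 1930 with 1 array left out, where fewer arrays separate more easily. The median difference (-0.02) was -0.064 with quantile normalisation, -0.036 with normexp, 0.14 with no filter, -0.0015 with the slide row as a block or the first row alone, and -0.035 to -0.015 with 1 array left out. For chromosome 12 it was -0.10 with quantile normalisation and 0.16 with no filter. Probes detected in 1 group only (196) numbered 39 with a common limit (added after seeing the data) and 218 to 771 with 1 array left out, highest without knockout 1. Strand pairs with both labels (598) become 1067 with no filter by construction. The causes were not tested.

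Of 511 comparisons of the 29 named interval probes with an alternative, 473 kept direction and side of the threshold, 15 lost and 19 gained a call. The other 4 turned sign, all at bright probes near 0: A_30_P01028215 at -0.0056 without control 1 (range with 1 array left out -0.0056 to 0.066), and A_30_P01031448 at -0.039 without control 1, -0.0025 without control 2 and -0.0046 without knockout 1 (range -0.039 to 0.075). Signal close to background limits what could be seen: the median SE of an interval probe was 0.114, against 0.0802 for other probes.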

Other observations

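Another 13 probes carry an interval without a strand label. The 5 probes of one interval on chromosome 17 were all kept, with differences of 0.10 to 0.24 and adjusted p-values of 0.356 to 0.804. Of 3 probes of an interval on chromosome 3 there was 1 kept, A_30_P01017966, with a difference of -0.28, and none of the 5 probes of an interval on chromosome 6 was kept.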
